A study of Mus musculus with 12 samples.

Results

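The transcripts of 8 enzymes of folate one-carbon metabolism were examined in liver RNA of mice lacking A1cf (KO, genotype A1cf -/-) and of wild-type mice (WT). The set holds 4 mitochondrial enzymes, encoded by Mthfd1l, Mthfd2, Shmt2 and Aldh1l2, and 4 cytosolic enzymes, encoded by Mthfd1, Shmt1, Aldh1l1 and Ftcd, and all 8 gene names were found among the 46882 in the count table. The set was chosen by the counts of Mthfd1l, which are lower in KO than in WT liver, with the enzymes of the same pathway placed beside it. The KO and WT values of the 8 genes are therefore given as a description, and p-values printed for them support nothing. Both groups were C57BL/6 mice of 6 to 8 weeks, with 6 libraries of each genotype, called biological replicates in the study's design. The labels do not say which part of A1cf was deleted or in which cells, and give no litter or sex. A1CF is an RNA-binding protein of hepatocytes, known as a cofactor of the cytidine deaminase APOBEC1 in editing of Apob mRNA.

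Folate carries single carbon units between serine, formate, purines, thymidylate and methionine, and mammalian cells run the same chemistry in mitochondria and in the cytosol. In mitochondria, serine hydroxymethyltransferase (SHMT2) takes the carbon from serine, MTHFD2 oxidises it, and MTHFD1L, a 10-formyl-tetrahydrofolate synthetase, releases it as formate, which leaves for the cytosol. There MTHFD1, which joins the synthetase with dehydrogenase and cyclohydrolase activities in a single protein, loads formate onto folate again, and SHMT1 interconverts serine and glycine. ALDH1L1 in the cytosol and ALDH1L2 in mitochondria oxidise the formyl carbon to CO2, and FTCD feeds carbon from histidine into the folate pool. Liver is a main site of folate storage, and hepatocytes are known for abundant ALDH1L1 and FTCD.

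Total counts per library lay between 22129092 and 51082317. A1cf, on chromosome 19, had 8.20 to 12.6 CPM (counts per 1000000 of the scaled library size) in KO and 47.9 to 53.8 CPM in WT, and its KO mean was 20.9% of the WT mean. The 8 hepatocyte markers summed to 79827 to 99360 CPM in KO and 87401 to 109074 CPM in WT, with 8 of 8 log2 fold changes below 0 and 0 past the threshold of an adjusted p of 0.05. Most of these sums was Alb, which alone averaged 66267 CPM in KO and 69601 CPM in WT. The 11 Kupffer cell and macrophage markers summed to 138 to 491 CPM in KO and 134 to 222 CPM in WT, with 11 of 11 log2 fold changes above 0 and 0 past the threshold, and the 11 stellate cell markers to 367 to 518 CPM in KO and 223 to 387 CPM in WT, with 11 of 11 above 0 and 2 past it. The 10 sinusoidal endothelial markers summed to 232 to 276 CPM in KO and 145 to 286 CPM in WT, with 10 of 10 above 0 and 1 past the threshold. The 7 neutrophil and monocyte markers summed to 3.995 to 23.3 CPM in KO and 2.78 to 7.47 CPM in WT, with 4 of 4 tested above 0, a median of 1.00 and 0 past it. The 7 cholangiocyte markers summed to 41.6 to 531 CPM in KO and 46.6 to 142 CPM in WT, with 2 of 6 tested above 0 and 0 past it. Of the lymphocyte markers tested, 3 of 3 for T and NK cells and 4 of 6 for B and plasma cells were above 0, with 0 past it. Over all 13706 genes tested, 48.2% had a log2 fold change below 0 and 3.82% were past the threshold. None of these markers was at 0 in every library. The part of cell makeup in the results below was not tested, and in whole liver RNA fewer cells of a type and less RNA per cell cannot be told apart.

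Levels were compared between genes as CPM per kb of exon. In both genotypes 5 members were abundant and 3 mitochondrial members were scarce. Aldh1l1 averaged 202 ± 42.1 CPM per kb in KO and 196 ± 53.1 in WT (SD, n = 6 each). Ftcd averaged 200.4 ± 27.6 CPM per kb in KO and 181 ± 14.8 in WT, and its ranges overlapped those of Aldh1l1. Shmt2 followed with 97.8 ± 8.85 CPM per kb in KO and 103 ± 13.2 in WT, and its ranges overlapped no other member's. Mthfd1, at 49.1 ± 5.84 CPM per kb in KO and 58.2 ± 4.81 in WT, and Shmt1, at 51.9 ± 7.47 in KO and 51.4 ± 5.29 in WT, overlapped with each other in both genotypes. The mitochondrial enzymes other than Shmt2 were all below 1 CPM per kb. Mthfd1l was at 0.193 ± 0.0802 CPM per kb in KO and 0.604 ± 0.147 in WT, Mthfd2 at 0.222 ± 0.0197 in KO and 0.231 ± 0.0894 in WT, and Aldh1l2 at 0.0539 ± 0.0265 in KO and 0.0195 ± 0.00884 in WT. In WT every Mthfd1l library lay above every Mthfd2 library, whereas in KO the 2 genes overlapped.

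**Figure D1:**
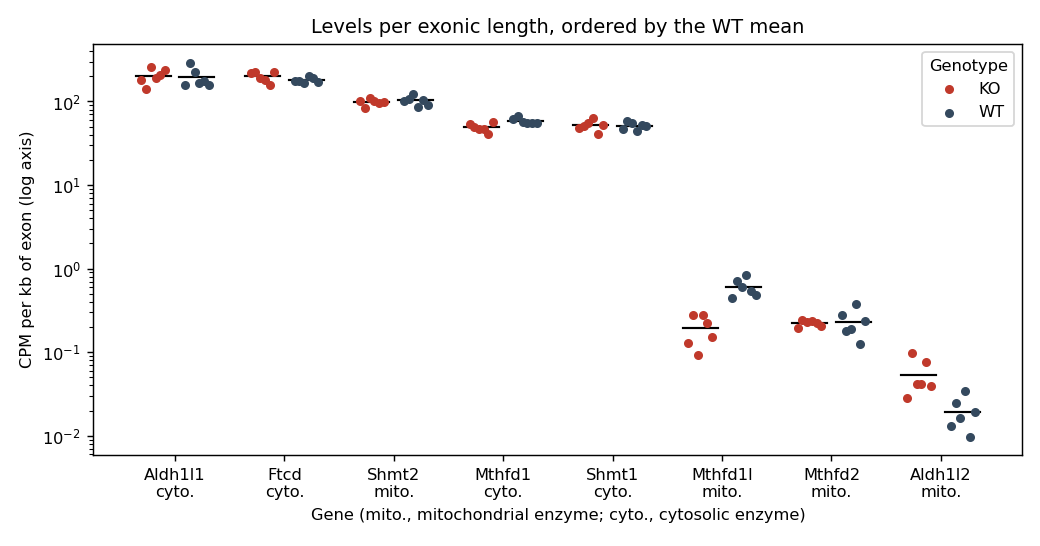
Level of each member per exonic length in every library, as CPM per kb of exon on a log axis, with KO points to the left of WT points and a line at each group's mean. The 5 abundant members lie between 40.4 and 291 CPM per kb, and Mthfd1l, Mthfd2 and Aldh1l2 all lie below 1.

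Mthfd1l (chromosome 10, 3973118 to 4167081, plus strand, mm10) showed the widest gap between the genotypes among the members that could be fitted. Its lowest, median and highest levels were 0.413, 0.838 and 1.24 CPM in KO, against 1.97, 2.54 and 3.68 CPM in WT. Every KO library lay below every WT library. The KO mean of 0.856 ± 0.356 CPM was 31.98% of the WT mean of 2.68 ± 0.651 CPM (SD, n = 6 each), and the log2 fold change was −1.67 with a standard error of 0.27. These levels rest on 16 to 32 counts per KO library and 60 to 100 counts per WT library. All 12 libraries were above the level needed for a gene to be tested, 0.369 CPM, so the gene did not enter the fit through its WT values alone. Leaving out each library in turn moved the log2 fold change between −1.81 and −1.50. The difference in mean log2 CPM, KO minus WT, was −1.56 among libraries numbered 573 to 602 (5 KO and 3 WT) and −1.89 among those numbered 776 to 780 (1 KO and 3 WT).

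**Figure D2:**
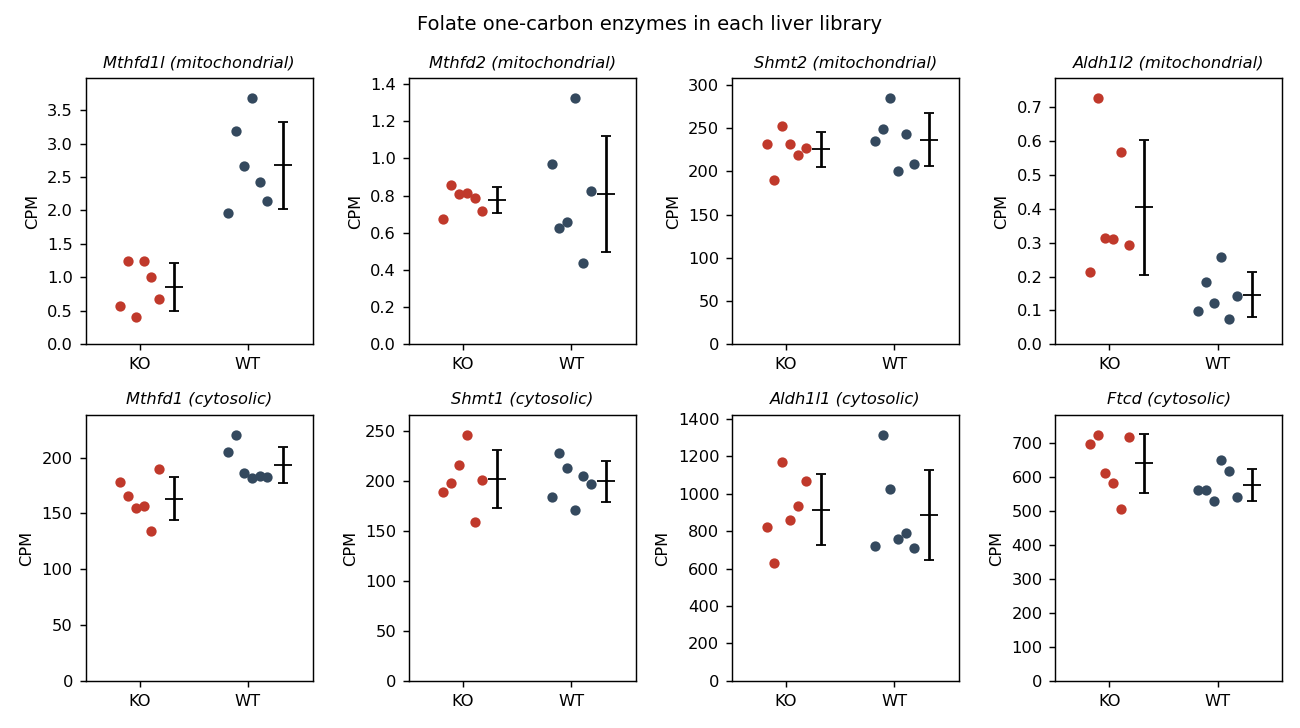
CPM of the 8 members in each library, KO left and WT right in each panel, with linear axes from 0; the bar beside the points is the mean ± SD of 6 libraries. KO libraries of Mthfd1l reach at most 1.24 CPM and WT libraries start at 1.97 CPM, while the KO and WT points of every other member overlap.

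Of the 7 members abundant enough to be fitted, 1, Mthfd1l, was past an adjusted p of 0.05 in edgeR's quasi-likelihood test, and it was lower in KO. DESeq2 and limma-voom gave the same single member. Over all 13706 genes tested, 3.82% were past that threshold, 1.72% higher and 2.09% lower in KO, and 3.3% had KO and WT libraries that did not overlap. Nothing is read from the members' count, since the set was chosen with this contrast known. These are 236 higher and 287 lower genes, a split that became 266 and 139 when CPM were scaled by library totals without TMM.

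Around the Mthfd1l locus no other gene passed the threshold. Of the 25 other genes within 1 Mb on either side, 10 were tested and 0 passed the threshold, and 0 of these 10 passed an unadjusted p of 0.05, a level that 21.2% of all tested genes passed. Their log2 fold changes ran from −0.23 for Iyd, which encodes iodotyrosine deiodinase, to 0.28 for Plekhg1, the nearest gene upstream, which ends 5.82 kb before Mthfd1l. On the other side Akap12, a kinase anchoring protein gene, was at 0.21 with a standard error of 0.45.

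The sequences before the start sites of Mthfd1l and its cytosolic counterpart Mthfd1 are shown because these enzymes share the synthetase step and their log2 fold changes were −1.67 and −0.24. They are the 250 bases before the RefSeq start site (GRCm38.p6, plus strand) at chr10:3972825-3973074 and chr12:76254982-76255231, with matches to the GC box GGGCGG and the CCAAT box in capitals, on either strand.

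Mthfd1l: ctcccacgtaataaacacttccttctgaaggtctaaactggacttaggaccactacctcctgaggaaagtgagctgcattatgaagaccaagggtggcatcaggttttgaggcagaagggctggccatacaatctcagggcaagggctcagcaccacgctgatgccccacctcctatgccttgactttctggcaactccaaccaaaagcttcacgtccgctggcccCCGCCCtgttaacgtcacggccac

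Mthfd1: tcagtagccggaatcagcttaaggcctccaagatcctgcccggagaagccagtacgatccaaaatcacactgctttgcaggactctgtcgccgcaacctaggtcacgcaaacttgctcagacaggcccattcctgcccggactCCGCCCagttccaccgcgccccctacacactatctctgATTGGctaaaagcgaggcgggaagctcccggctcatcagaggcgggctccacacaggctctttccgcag

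Mthfd1l had 1 GC box and 0 CCAAT boxes in this window, and Mthfd1 had 1 of each. The Mthfd1 window held 15 CpG pairs and was 59.2% G or C, against 7 CpG pairs and 54.4% for Mthfd1l. Among the 7 members with an entry, 4 held a GC box and 4 a CCAAT box, motifs found in 32.7% and 33.8% of all 32851 windows of this length. The C/EBP-ATF response element TGATGNAA, the motif bound by the stress factor ATF4, was in 0 of the 7 windows and in 3.45% of all of them. Aldh1l2 had no entry. The RefSeq start sites were not always those of the annotation behind the counts, and the windows of Mthfd2, Shmt1 and Aldh1l1 lay inside the genes as counted. For Mthfd2, on the minus strand, the window ended at 83317854 and the counted gene reached 83325908. For Aldh1l1, on the plus strand, the window ended at 90550792 and the counted gene started at 90486427.

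The other mitochondrial members differed less or were too scarce to be fitted. Mthfd2, the dehydrogenase and cyclohydrolase that precedes MTHFD1L, had 0.672, 0.796 and 0.856 CPM as lowest, median and highest in KO and 0.440, 0.740 and 1.32 CPM in WT. The KO libraries lay inside the WT range, and the log2 fold change was −0.06 with a 95% interval from −0.57 to 0.45, at 17 to 41 counts per KO library and 12 to 40 per WT library. Shmt2, which supplies the mitochondrial pathway from serine, had 190.5, 229 and 253 CPM in KO and 200.4, 239 and 285 CPM in WT. Its groups overlapped, with a log2 fold change of −0.07 and a 95% interval from −0.28 to 0.14.

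Aldh1l2, the mitochondrial formyl-folate oxidase, was the one member below the level needed for testing, which 2 KO libraries and 0 WT libraries reached. It had 6 to 17 counts per KO library and 2 to 7 per WT library, or 0.212, 0.313 and 0.728 CPM as lowest, median and highest in KO and 0.0733, 0.133 and 0.257 CPM in WT. Of the 6 KO libraries 5 lay above the highest WT library. In a fit without a low-count filter the log2 fold change was 1.42, with an adjusted p of 0.079 in edgeR's quasi-likelihood test, so the direction was opposite to that of Mthfd1l and the value did not pass. The floor that a count of 0 allows, 3 counts, lay between 0.0590 and 0.131 CPM over the libraries, near the WT values.

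Among the cytosolic members, Mthfd1 stood furthest from 0. Its lowest, median and highest levels were 134.4, 161 and 190 CPM in KO, against 182, 185 and 220.5 CPM in WT. Of the 6 KO libraries 5 lay below every WT library, and KO 780 at 190 CPM lay within the WT range. The log2 fold change was −0.24 with a 95% interval from −0.44 to −0.05, and the adjusted p was 0.15 (edgeR's quasi-likelihood test), which does not pass. The difference in mean log2 CPM, KO minus WT, was −0.37 among libraries 573 to 602 and 0.06 among libraries 776 to 780, where KO 780 is the only KO library.

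Shmt1, the cytosolic serine hydroxymethyltransferase, had 159, 199.8 and 246 CPM as lowest, median and highest in KO and 171, 201 and 228 CPM in WT, a log2 fold change of 0.01 with a 95% interval from −0.21 to 0.24. Aldh1l1, which oxidises formyl-folate in the cytosol, had 632, 896 and 1167 CPM in KO and 710.2, 774 and 1315 CPM in WT, with a log2 fold change of 0.04 and an interval from −0.34 to 0.43. The wide interval of Aldh1l1 goes with the spread inside each genotype, where KO 588 and WT 590 were highest. Its difference in mean log2 CPM, KO minus WT, was −0.19 among libraries 573 to 602 and 0.51 among libraries 776 to 780. Ftcd, the formiminotransferase of histidine breakdown, had 504, 654 and 724 CPM in KO and 528, 561 and 649 CPM in WT, a log2 fold change of 0.15 with an interval from −0.08 to 0.38. Adjusted p-values of the 6 fitted members other than Mthfd1l lay between 0.15 and 0.96 in edgeR's quasi-likelihood test. These intervals do not show that the genotypes were alike. Shmt2, Shmt1 and Aldh1l1 overlap annotated genes on the opposite strand (Ndufa4l2 for Shmt2, Smcr8 and Gm24945 for Shmt1, Gm15756 for Aldh1l1). Reads of these overlapping stretches could not be told apart by strand. On the same strand, Mthfd1l overlaps Gm16074 and Gm25515, each with 0 counts over all libraries. Mthfd2 overlaps RP24-317F6.7 (11 counts), and Aldh1l1 overlaps RP24-457L7.3 and RP24-457L7.4 (19 and 78 counts).

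Set per length against its cytosolic counterpart in the same library, Mthfd1l stood at 0.403 ± 0.186% of Mthfd1 in KO and at 1.04 ± 0.269% in WT (SD, n = 6 each), with ranges of 0.200 to 0.593% and 0.718 to 1.52% that did not overlap. Mthfd1l was chosen for its lower counts in KO, so this gap restates that choice. Mthfd2 stood at 0.460 ± 0.0820% of Mthfd1 in KO and 0.401 ± 0.168% in WT, with overlapping ranges. Shmt2 stood at 191 ± 28.0% of Shmt1 in KO and 199.9 ± 17.8% in WT, with overlapping ranges. Aldh1l2 stood at 0.0293 ± 0.0211% of Aldh1l1 in KO and at 0.0103 ± 0.00542% in WT, with overlapping ranges of 0.0156 to 0.0693% and 0.00557 to 0.0205%. The 4 mitochondrial transcripts summed to 98.2 ± 8.76 CPM per kb in KO and 104 ± 13.1 in WT, and the 4 cytosolic transcripts to 504 ± 48.9 in KO and 486 ± 57.4 in WT. Mthfd1l made up 0.203% of the mitochondrial sum in KO and 0.593% in WT, so that sum was almost wholly Shmt2 (99.5% in KO and 99.2% in WT).

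Whether the members moved together among mice of one genotype was examined with deviations of log2 CPM from the genotype mean, which were not used in choosing them. Of the 7 relations of Mthfd1l with the other members, the closest was with Aldh1l2, with Pearson r = 0.68 (permutation p = 0.033) and Spearman rho = 0.61 (permutation p = 0.060) over 12 libraries. Adjusted over the 7 relations, the p-values were 0.23 and 0.42, so the relation did not pass. Without KO 588 and KO 574, the libraries farthest from the Mthfd1l median over both genotypes, r was 0.65 (n = 10, permutation p = 0.064). That choice did not use the deviations, and it kept KO 584, which deviated by 0.60 for Mthfd1l and 0.85 for Aldh1l2. The weight of KO 584 in r was not tested. Among libraries 573 to 602 r was 0.66 (n = 8, permutation p = 0.18). The libraries numbered 776 to 780 are too few for a value of their own. Both genes rest on low counts in the same libraries. The relation with Shmt2 had r = −0.43 (permutation p = 0.15) and rho = −0.41 (permutation p = 0.20), and those with Mthfd2, Mthfd1, Shmt1, Aldh1l1 and Ftcd had r between −0.22 and 0.22, all with adjusted permutation p of 0.84 or more.

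**Figure D3:**
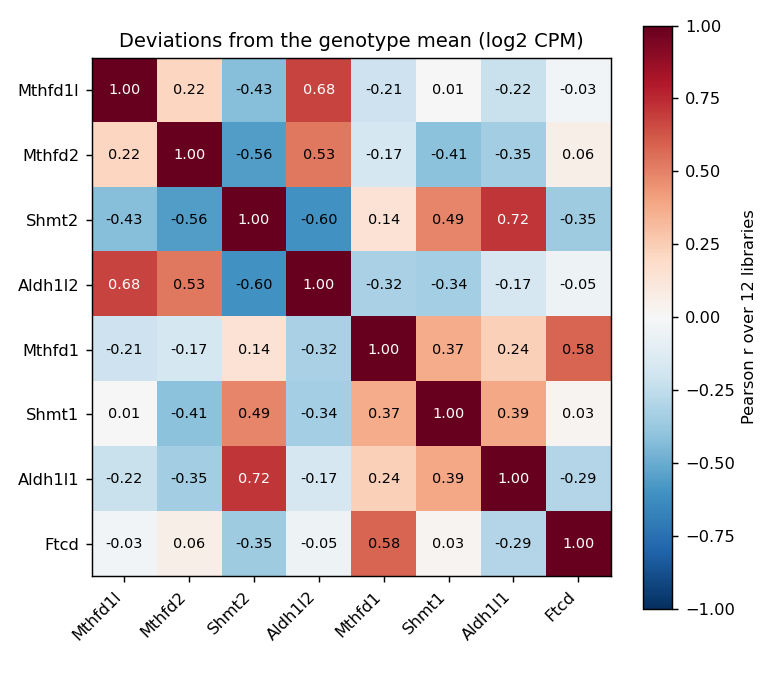
Pearson r between members of the deviations of log2 CPM from the genotype mean over 12 libraries, in colour and as a number in each cell. Mthfd1l has its highest value with Aldh1l2 (0.68) and its lowest with Shmt2 (−0.43); the other pairs are a description without a test.

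The biological coefficient of variation that edgeR estimated for Mthfd1l was 29.5%, close to the 28.4% of genes of its abundance. For Mthfd1, Shmt2 and Shmt1 it was 14.3%, 15.02% and 15.7%, below the 21.5% to 22.2% of genes as abundant as these. For Ftcd, Mthfd2 and Aldh1l1 it was 16.6%, 22.2% and 24.2%, also below the 25.2%, 29.8% and 26.2% of genes of their abundance. Among 11952 other tested genes with a mean of at least 1 CPM, the deviations most like those of Mthfd1l were in Gm11843 (r = 0.87), Lmna, which encodes the nuclear lamins A and C (0.86), Snx12, a sorting nexin gene (0.86), AI118078 (0.82) and Tm6sf2, a hepatic lipid transport gene (0.80), over 12 libraries. For AI118078 r was 0.95 among the 6 KO libraries and 0.32 among the 6 WT libraries. These are the highest of many values and have no test. None of the 5 passed the threshold between the genotypes, their log2 fold changes being 0.08, −0.14, −0.20, −0.49 and −0.18.

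The other genes around the folate cycle were described by 6 lists, of which 93 of 97 genes were tested. Of these 0 rose and 1, asparagine synthetase (Asns), fell, against 1.72% and 2.09% of all tested genes. At an unadjusted p of 0.05, 23 of the 93 passed, or 24.7%, beside 21.2% of all genes. DESeq2 called 3 higher and 8 lower, and limma-voom 0 higher and 1 lower. The lists had median log2 fold changes between −0.14 and 0.04, beside 0.01 over all genes.

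**Figure D4:**
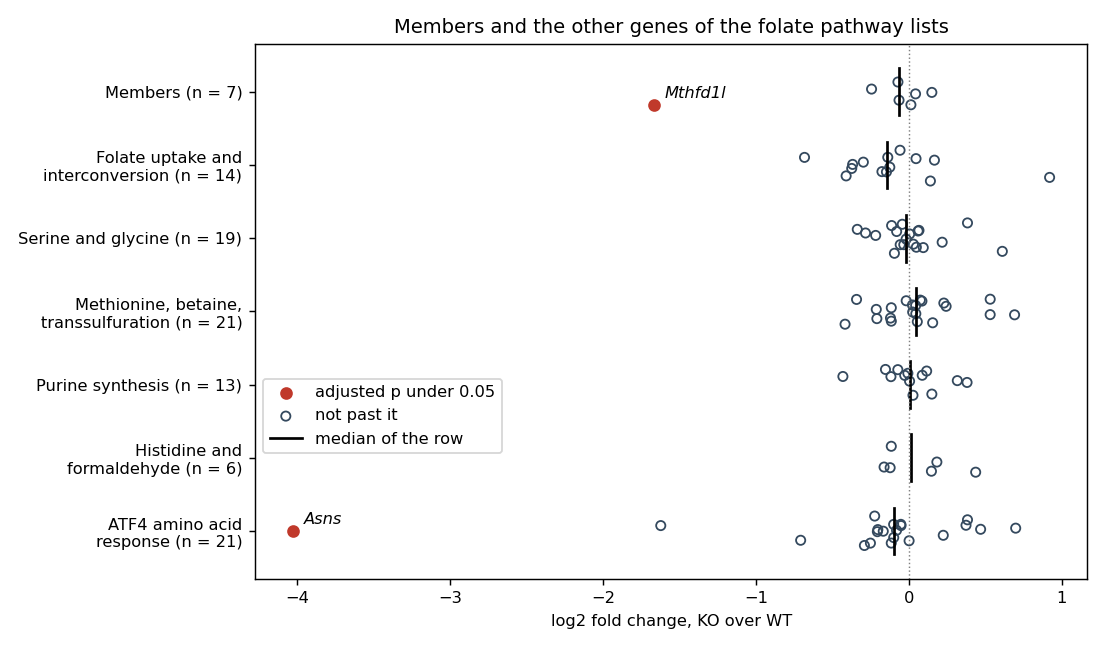
Log2 fold change, KO over WT, of the 7 fitted members and of the tested genes of 6 pathway lists, with filled points past an adjusted p of 0.05 and a bar at each row's median. Mthfd1l (−1.67) and Asns (−4.03) are the only filled points; Psat1 is in 2 rows.

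Genes of folate uptake, retention and interconversion had the lowest median, −0.14, with 0 past the threshold. Of its 14 tested genes 10 were below 0, beside 48.2% of all tested genes. At an unadjusted p of 0.05, 5 of the 14 passed (1 higher and 4 lower), or 35.7%, beside 21.2% of all tested genes. Slc46a1, the proton-coupled folate transporter, averaged 20.9 ± 6.20 CPM in KO and 33.6 ± 6.67 CPM in WT (SD, n = 6 each), a log2 fold change of −0.68 (adjusted p = 0.069). Of its 6 KO libraries 4 lay below the WT range. Slc19a1, the reduced folate carrier, averaged 12.6 ± 2.04 CPM in KO and 16.8 ± 2.79 CPM in WT (−0.41, adjusted p = 0.090). Slc46a1 passed in DESeq2 (adjusted p = 0.014) and with the library number range as a covariate (adjusted p = 0.019). Over all other settings of edgeR and limma-voom it fell short. Slc19a1 passed in DESeq2 (adjusted p = 0.046) and in edgeR without WT 573 (adjusted p = 0.045), and in none of the other 19 alternative settings. Folr2, a folate receptor gene known from macrophages, and Mthfd2l, the mitochondrial relative of Mthfd2, were picked out after their values were seen. Folr2 was at 5.33 CPM in KO and 2.84 CPM in WT (0.92, adjusted p = 0.12; it passed in DESeq2), beside the Kupffer cell markers given above. Mthfd2l was at 1.11 CPM in KO and 0.972 CPM in WT (0.17, adjusted p = 0.78).

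Of 19 tested genes of serine and glycine metabolism, 0 passed and the median was −0.02. At an unadjusted p of 0.05, 4 passed, or 21.1%, beside 21.2% of all tested genes. Dmgdh, the mitochondrial dimethylglycine dehydrogenase that yields folate-bound carbon from choline breakdown, was closest, at 765 ± 186 CPM in KO and 501 ± 81.6 CPM in WT (SD, n = 6 each). Its log2 fold change of 0.61 had an adjusted p of 0.052 in edgeR's quasi-likelihood test. It passed under 7 of 21 alternative settings, with adjusted p from 0.0065 to 0.40 over all 21. Srr, serine racemase, was at −0.22 (adjusted p = 0.11) and passed in DESeq2 alone (adjusted p = 0.043). Phgdh, which opens serine synthesis, was too scarce to be tested.

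Of 21 genes of the methionine cycle, betaine use and transsulfuration, 0 passed and the median was 0.04. At an unadjusted p of 0.05, 5 passed, or 23.8%, beside 21.2% of all tested genes. Mtrr, which keeps methionine synthase active, averaged 6.26 ± 0.493 CPM in KO and 8.36 ± 1.28 CPM in WT (−0.42, adjusted p = 0.053). Bhmt, which remethylates homocysteine with betaine and yields the substrate of DMGDH, averaged 5967 ± 1856 CPM in KO and 3693 ± 549 CPM in WT (0.69, adjusted p = 0.069), and 5 of 6 KO libraries lay above the WT range. Mtrr passed under 3 and Bhmt under 3 of 21 alternative settings.

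Formate made with MTHFD1L is used in purine synthesis. Of 13 purine synthesis genes 0 passed and the median was 0.005. At an unadjusted p of 0.05, 2 passed, or 15.4%, beside 21.2% of all tested genes. In edgeR's quasi-likelihood test Prps2, a phosphoribosyl pyrophosphate synthetase, was at −0.43 (adjusted p = 0.11). Ppat, the amidotransferase that starts the pathway, was at 0.38 (adjusted p = 0.13) in the same test. Prps2 passed with the library number range as a covariate, at −0.56 (adjusted p = 0.027), and without KO 584, at −0.53 (adjusted p = 0.045), both in edgeR's quasi-likelihood test. Of 6 genes of histidine breakdown and formaldehyde oxidation 0 passed, with a median of 0.02 (1, or 16.7%, at an unadjusted p of 0.05). Hal, which starts the pathway that FTCD ends, was at 0.44 (adjusted p = 0.18), and Esd, an esterase of formaldehyde oxidation, at −0.16 (adjusted p = 0.27).

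ATF4, the transcription factor of the amino acid response, is known to drive Mthfd2, Shmt2 and Aldh1l2 in cultured cells. Of 21 tested genes of that response 0 rose and 1 fell, with a median of −0.10. At an unadjusted p of 0.05, 6 passed, or 28.6%, beside 21.2% of all tested genes. Asns had 0.212, 0.274 and 1.41 CPM as lowest, median and highest in KO and 2.02, 6.998 and 18.9 CPM in WT, and its groups did not overlap. In edgeR's quasi-likelihood test its log2 fold change was −4.03 ± 0.67 (SE), at an adjusted p of 0.0080. Asns entered the fit through its WT values. Its KO median lay below the 0.369 CPM needed for a gene to be tested, and every WT library lay above that level. Its counts came to 88 over the 6 KO libraries and 1434 over the 6 WT libraries, so the KO values lie near the floor. The gene lists were also chosen with earlier results of these data known, so the Asns values and their p-value are a description. In the libraries numbered 573 to 602 alone, the log2 fold changes were −3.77 for Asns and −1.57 for Mthfd1l, each with an adjusted p of 0.10 in edgeR's quasi-likelihood test, so that neither was past the threshold there.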

How the data were processed

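Liver RNA of 6 KO and 6 WT mice was sequenced after a TruSeq library preparation from total RNA, per the labels' protocols. The authors' deposited table holds raw fragment counts for each gene name from featureCounts 1.5.0-p2 on exons of GENCODE M8 without a strand option, per the file headers, together with an exonic length per gene, another deposited value. STAR, DESeq2 and the build mm10 are named in the submitters' processing notes. Library numbers are those of the titles, and the groups share none. Libraries of a group differed from each other by more than counting noise in every pair, at 15.1 to 272 in chi-square divided by its degrees of freedom.

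The main test used edgeR 4.0.16 under R 4.3.3: filterByExpr (minimum count 10), TMM scaling, robust quasi-likelihood test with genotype as the only term, and Benjamini-Hochberg adjustment over 13706 genes at 0.05. CPM use TMM-scaled library sizes, log2 CPM a prior count of 2, and levels per length the deposited exonic length. Intervals are 95% intervals of the fitted log2 fold change, and the standard error is its size over the square root of F. A floor of 3 counts covers counting error only. P-values of the main test set the genotype difference against the spread between these livers, which is estimated partly from other genes. Correlations were tested with 100000 permutations within genotype, two-sided, adjusted over 7 relations. Alternatives used DESeq2 1.42.0, limma-voom (limma 3.58.1), other scalings and filters, and fewer libraries. The fit was tested on simulated counts with known changes. Sequences are from RefSeq (GRCm38.p6), matched by symbol.

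The members and gene lists were chosen with earlier results of these data known. Named genes were A1cf, the members, from each list up to 3 genes past the threshold or otherwise the 2 with the smallest p, the 5 genes most like Mthfd1l, and called genes within 1 Mb of it. Folr2, Mthfd2l, Phgdh and, near Mthfd1l, Iyd, Plekhg1 and Akap12 were named outside this rule. Of 12 columns of counts all were used.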

Additional observations from a re-analysis of the deposited data

Results flagged for a closer look

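Among the members and named genes, 50 groups of 6 libraries were searched for a library far from the others, and 1 was found, where chance alone gives about 1 in 20. Prps2, of purine synthesis, was at 8.32 CPM in WT 777 and at 11.3 to 12.7 CPM in the other WT libraries.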

How the results depend on the processing

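Among the members, Mthfd1l was the single one past the threshold in 20 of 21 alternative settings. Mthfd1l was chosen for this contrast, so the tally describes the settings and is no support for the difference. In the libraries numbered 573 to 602 alone, 0 members passed, where Mthfd1l kept a log2 fold change of −1.57 (adjusted p = 0.10); that fit has 8 libraries. None of the members was called higher in any setting. The all-gene counts of 236 higher and 287 lower were 548 and 627 with DESeq2, 25 and 32 in libraries 573 to 602, 95 and 111 without the 2 deepest libraries, WT 573 and KO 588 (chosen after the data were seen), 116 to 313 and 150 to 325 with 1 library left out (lowest without WT 777, highest without WT 590; over 1.5 times fewer higher or lower genes also without WT 573, WT 778, KO 574, KO 588 or KO 591), and 139 lower with library totals only. For the pathway lists, 0 higher and 1 lower became 3 and 8 with DESeq2, 1 and 4 with the number range as a covariate, 1 higher with library totals only, with no low-count filter or with a mean of at least 1 CPM, 0 lower in libraries 573 to 602, and 0 to 2 higher and 1 to 3 lower with 1 library left out (2 higher without WT 590, KO 584 or KO 602; 3 lower without WT 573 or KO 584). The cause was not tested. The signs of Mthfd2, Shmt1 and Aldh1l1, all near 0, changed between settings. No paired analysis was possible because the groups share no library number. Depth limits Aldh1l2, Mthfd2 and the KO values of Mthfd1l, which rest on 2 to 41 counts per library.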
